A study of Mus musculus with 40 samples.

Results

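The 10 genes described here act in antigen presentation and were chosen by symbol: H2-Aa, H2-Ab1, H2-Eb1, Cd74, Ciita, H2-K1, H2-D1, B2m, Tap1 and Psmb8. All 10 were listed in both tables of aortic RNA-seq, among 17402 genes in the genotype experiment and 15399 genes in the cyclosporine A (CsA) experiment. All 10 also passed the filter on low values, so that they are 10 of 14424 and 10 of 13738 protein-coding genes tested. MHC class I molecules are made by almost every nucleated cell and show peptides of proteins made inside the cell to CD8 T cells. MHC class II molecules are made mainly by dendritic cells, macrophages and B cells, and by other cells after interferon gamma, and show peptides of ingested proteins to CD4 T cells. Interferons raise the transcription of genes of both classes, in large part through NLRC5 for class I and CIITA for class II.

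The study asked how deletion of calcineurin in smooth muscle cells, or its inhibition by CsA, alters the response of the mouse aorta to angiotensin-II (Ang-II), a peptide hormone that raises blood pressure. In the genotype experiment, Cn-Ctl males (CnB1-flox;Myh11-CreERT2-neg) and SM-Cn-/- males, whose floxed CnB1 gene was deleted through the smooth muscle driver Myh11-CreERT2, all received tamoxifen at 1 mg a day for 5 days and were used 6 weeks later. They were untreated (no Ang-II) or carried minipumps giving 1 µg/kg/min Ang-II for 2, 6 or 24 h, in 22 libraries. In the CsA experiment, C57BL/6J wild-type males (WT) without pretreatment or with minipumps giving CsA at 5 mg/kg per day for 5 days (CsA) were untreated or received the same Ang-II dose for 2 or 24 h, in 18 libraries. Mice were 10 to 12 weeks old at the first treatment. "Untreated" CsA libraries therefore come from mice with CsA and no Ang-II, and because WT mice had no pump during the pretreatment, CsA and its pump cannot be told apart. Untreated mice likewise had no Ang-II pump, so Ang-II and its pump cannot be told apart either. All responses to Ang-II in an arm share its untreated libraries. Groups hold 3 libraries, except untreated Cn-Ctl and Cn-Ctl after 24 h of Ang-II with 2 each, and every library pools 3 aortas. Among mice given Ang-II, only those with a systolic pressure above 130 mmHg entered the Cn-Ctl, WT and CsA groups, whereas SM-Cn-/- mice treated in parallel did not have to meet it. SM-Cn-/- mice without a verified CnB1 deletion, and CsA mice without a verified block of NFAT dephosphorylation in the thymus, were to be dropped.

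The start-site windows of 5 of these genes are shown because the genes moved together below and because class I and class II genes share motifs near their start. RefSeq (GRCm38.p6) gave windows of 250 bases before to 50 bases from the start on for 7 of the 10 genes. H2-Ab1, Cd74 and Ciita had none. Capitals mark matches on either strand to 3 motifs: the interferon regulatory factor (IRF) consensus AANNGAAA, the Y box CCAAT and the kappaB motif GGGNNNNCCC. Each is printed 5′ to 3′ on the strand of its gene: B2m at chr2:122147437-122147736 (+), H2-K1 at chr17:34000298-34000597 (-), Tap1 at chr17:34187306-34187605 (+), Psmb8 at chr17:34197945-34198244 (+) and H2-Aa at chr17:34287774-34288073 (-).
B2m: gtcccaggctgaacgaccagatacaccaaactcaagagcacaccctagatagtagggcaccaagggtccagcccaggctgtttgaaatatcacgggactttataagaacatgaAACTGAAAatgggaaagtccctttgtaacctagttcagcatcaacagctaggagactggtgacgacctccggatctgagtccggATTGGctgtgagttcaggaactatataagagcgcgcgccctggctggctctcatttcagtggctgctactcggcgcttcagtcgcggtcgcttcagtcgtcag
H2-K1: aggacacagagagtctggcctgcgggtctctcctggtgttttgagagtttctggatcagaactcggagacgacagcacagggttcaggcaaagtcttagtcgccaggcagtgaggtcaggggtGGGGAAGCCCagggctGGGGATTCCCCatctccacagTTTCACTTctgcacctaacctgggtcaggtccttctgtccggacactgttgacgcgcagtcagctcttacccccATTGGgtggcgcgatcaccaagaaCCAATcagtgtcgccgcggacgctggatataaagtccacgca
Tap1: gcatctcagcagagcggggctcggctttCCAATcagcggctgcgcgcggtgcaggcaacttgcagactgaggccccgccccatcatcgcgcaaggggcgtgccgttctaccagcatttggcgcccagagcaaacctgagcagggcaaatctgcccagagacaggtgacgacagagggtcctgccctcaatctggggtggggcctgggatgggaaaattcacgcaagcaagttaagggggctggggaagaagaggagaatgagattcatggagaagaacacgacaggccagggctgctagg
Psmb8: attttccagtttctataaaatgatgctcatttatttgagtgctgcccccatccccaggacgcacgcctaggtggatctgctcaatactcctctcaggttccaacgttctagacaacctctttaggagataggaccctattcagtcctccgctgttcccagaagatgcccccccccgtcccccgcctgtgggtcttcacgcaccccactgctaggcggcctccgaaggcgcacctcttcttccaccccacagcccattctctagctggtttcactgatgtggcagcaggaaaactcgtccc
H2-Aa: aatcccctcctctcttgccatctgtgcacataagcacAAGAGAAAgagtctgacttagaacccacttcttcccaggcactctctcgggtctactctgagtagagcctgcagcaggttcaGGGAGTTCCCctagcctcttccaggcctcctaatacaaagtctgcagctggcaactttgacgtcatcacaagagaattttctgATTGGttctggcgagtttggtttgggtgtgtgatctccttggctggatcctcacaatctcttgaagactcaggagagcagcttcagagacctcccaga
The B2m window held an IRF match from -137 to -130 and a reversed Y box at -53, counted from the start. H2-K1 held an IRF match on the reverse strand from -90 to -83, Y boxes at -16 and 8, and kappaB matches at -127, -111 and -110, of which the last 2 overlap. H2-Aa held an IRF match at -213, a kappaB match at -131 and a Y box at -48. Tap1 held a Y box at -222, and the Psmb8 window held none of the 3. That window follows a RefSeq start inside the gene as GENCODE places it (chr17:34197721-34201454), so it does not cover the GENCODE start. Among the 7 windows, 4 held the IRF consensus (B2m, H2-K1, H2-D1 and H2-Aa), 6 the Y box (all but Psmb8) and 3 the kappaB motif (H2-K1, H2-D1 and H2-Aa). Of all 32851 windows of the same length, 23.9% held the IRF consensus, 37.4% the Y box and 11.9% the kappaB motif. A match is a description of the letters and not a sign of binding.

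Levels are given as signal, a CPM scale on which 0.5 was added to each read number and on which the authors had scaled the library sizes. The libraries held 2.73 to 10.3 M assigned reads in the genotype experiment and 19.0 to 38.9 M in the CsA experiment, so low genes are measured better in the latter. Per kilobase of exon, the median signal over the CsA experiment was 351 for B2m, 113 for H2-D1, 81.7 for H2-K1 and 34.5 for Cd74. It was 10.2 for H2-Eb1, 8.11 for H2-Ab1, 5.61 for H2-Aa, 3.63 for Psmb8, 1.93 for Tap1 and 0.0807 for Ciita. The class I chains were thus the most abundant members per length and the class II regulator Ciita the least. Of these genes 7 lie in the major histocompatibility complex on chromosome 17, where Tap1 (chr17:34187553-34197225) and Psmb8 (chr17:34197721-34201454, both on the + strand in GENCODE vM21, GRCm38) are neighbours. B2m lies at chr2:122147686-122153083 and Ciita at chr16:10480059-10528418, both on the + strand. H2-K1 and H2-D1 are close in sequence to each other and to H2-Q and H2-T genes, and RSEM divides reads among such copies, so their individual values are less certain than their sum.

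Smooth muscle markers were high in both experiments (summed signal over 6 genes 25023 to 34296 in untreated WT and 27848 to 28363 in untreated Cn-Ctl), as the label aorta implies. Ppp3r1, which encodes CnB1, had a signal of 45.7 to 134 over 10 Cn-Ctl libraries and of 41.8 to 118 over 12 libraries labelled SM-Cn-/-, and the ranges overlapped. The value is a gene total that does not separate the deleted part, and other aortic cells keep the gene, so it does not check the labels. In these bulk libraries, fewer cells of a type and less RNA per cell cannot be told apart.

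Each of the 10 genes was higher in the aorta of CsA mice than in WT mice before any Ang-II. The differences ran from 1.96-fold for B2m to 6.01-fold for Psmb8 on the scale of signal + 0.5. In CsA mice all 10 were lower after 2 h of Ang-II than in the same untreated CsA libraries. Neither after 2 h nor after 24 h did any of them pass the test between CsA and WT. In WT mice 2 h of Ang-II changed none of them detectably, and 24 h raised Ciita, a call that rested on single libraries.

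Of the class II chains, H2-Aa and H2-Ab1 pair as alpha and beta subunits that hold the peptide. The alpha chain H2-Aa had signals of 26.4, 13.3 and 17.1 in untreated WT and of 35.3, 50.1 and 45.7 in untreated CsA libraries. Its partner H2-Ab1 had 24.4, 10.8 and 12.6 against 33.6, 55.8 and 44.3, and the beta chain H2-Eb1 had 22.1, 9.72 and 14.3 against 34.5, 48.4 and 37.5. The lowest CsA library lay above the highest WT library for all 3 chains, and in WT it was replicate 1 that came closest. The log2 differences were 1.23 ± 0.29 for H2-Aa (SE, limma, Benjamini-Hochberg adjusted p = 0.00714), 1.52 ± 0.33 for H2-Ab1 (adjusted p = 0.00437) and 1.42 ± 0.32 for H2-Eb1 (adjusted p = 0.00509). Cd74, the invariant chain that guides class II molecules to the compartment where they load peptide, had 70.3, 34.1 and 46.0 in WT and 95.2, 163 and 119 in CsA libraries. These groups did not overlap either, and Cd74 differed by 1.34 ± 0.30 (SE, adjusted p = 0.00517) on the log2 scale.

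Ciita, the coactivator that class II genes need for transcription, was low throughout. Untreated WT libraries held 21, 4 and 8 reads (signal 0.847, 0.169 and 0.345) and untreated CsA libraries 68, 124 and 120 reads (signal 2.41, 5.07 and 4.64). All CsA libraries were above all WT libraries, by a log2 difference of 2.26 ± 0.35 (SE, adjusted p = 0.000880), a scale on which the added 0.5 understates the change of so low a gene.

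The class I heavy chain H2-K1 had signals of 219.6, 155 and 161 in untreated WT and 312, 464 and 617 in untreated CsA libraries. H2-D1, the other classical heavy chain of this strain, had 268, 202 and 212 against 369, 514 and 657. B2m, the light chain that class I heavy chains need to reach the cell surface, had 298, 261 and 276 against 393, 609 and 678. In all 3 the groups were apart, and CsA replicate 1 was the lowest CsA library. The log2 differences were 1.34 ± 0.26 for H2-K1 (SE, adjusted p = 0.00262), 1.14 ± 0.21 for H2-D1 (adjusted p = 0.00212) and 0.97 ± 0.19 for B2m (adjusted p = 0.00251).

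Tap1 and Psmb8 supply class I molecules with peptides. Tap1, a subunit of the pump that carries peptides into the endoplasmic reticulum, had signals of 13.3, 8.22 and 9.06 in untreated WT and 28.0, 68.3 and 64.2 in untreated CsA libraries. Psmb8, a catalytic subunit that replaces Psmb5 in the immunoproteasome, had 10.9, 6.54 and 5.82 against 24.3, 70.6 and 62.0. CsA replicate 1 had less than 0.5 times the level of the other CsA libraries for both genes, yet lay above every WT library. The log2 differences of 2.26 ± 0.36 (SE, adjusted p = 0.00101) for Tap1 and 2.59 ± 0.37 (SE, adjusted p = 0.000613) for Psmb8 were, with that of Ciita, the highest of the 10.

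All 10 genes passed the test and were higher in CsA, where 13.9% of all genes tested were called higher and 25.2% were called in either direction. The groups did not overlap for any of the 10, against 23.8% of all genes that were higher in every CsA than in every WT library. The median log2 difference of the 10 was 1.38, beside -0.02 over all genes. The count stayed at 10 without any 1 of the 6 libraries.

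**Figure D1:**
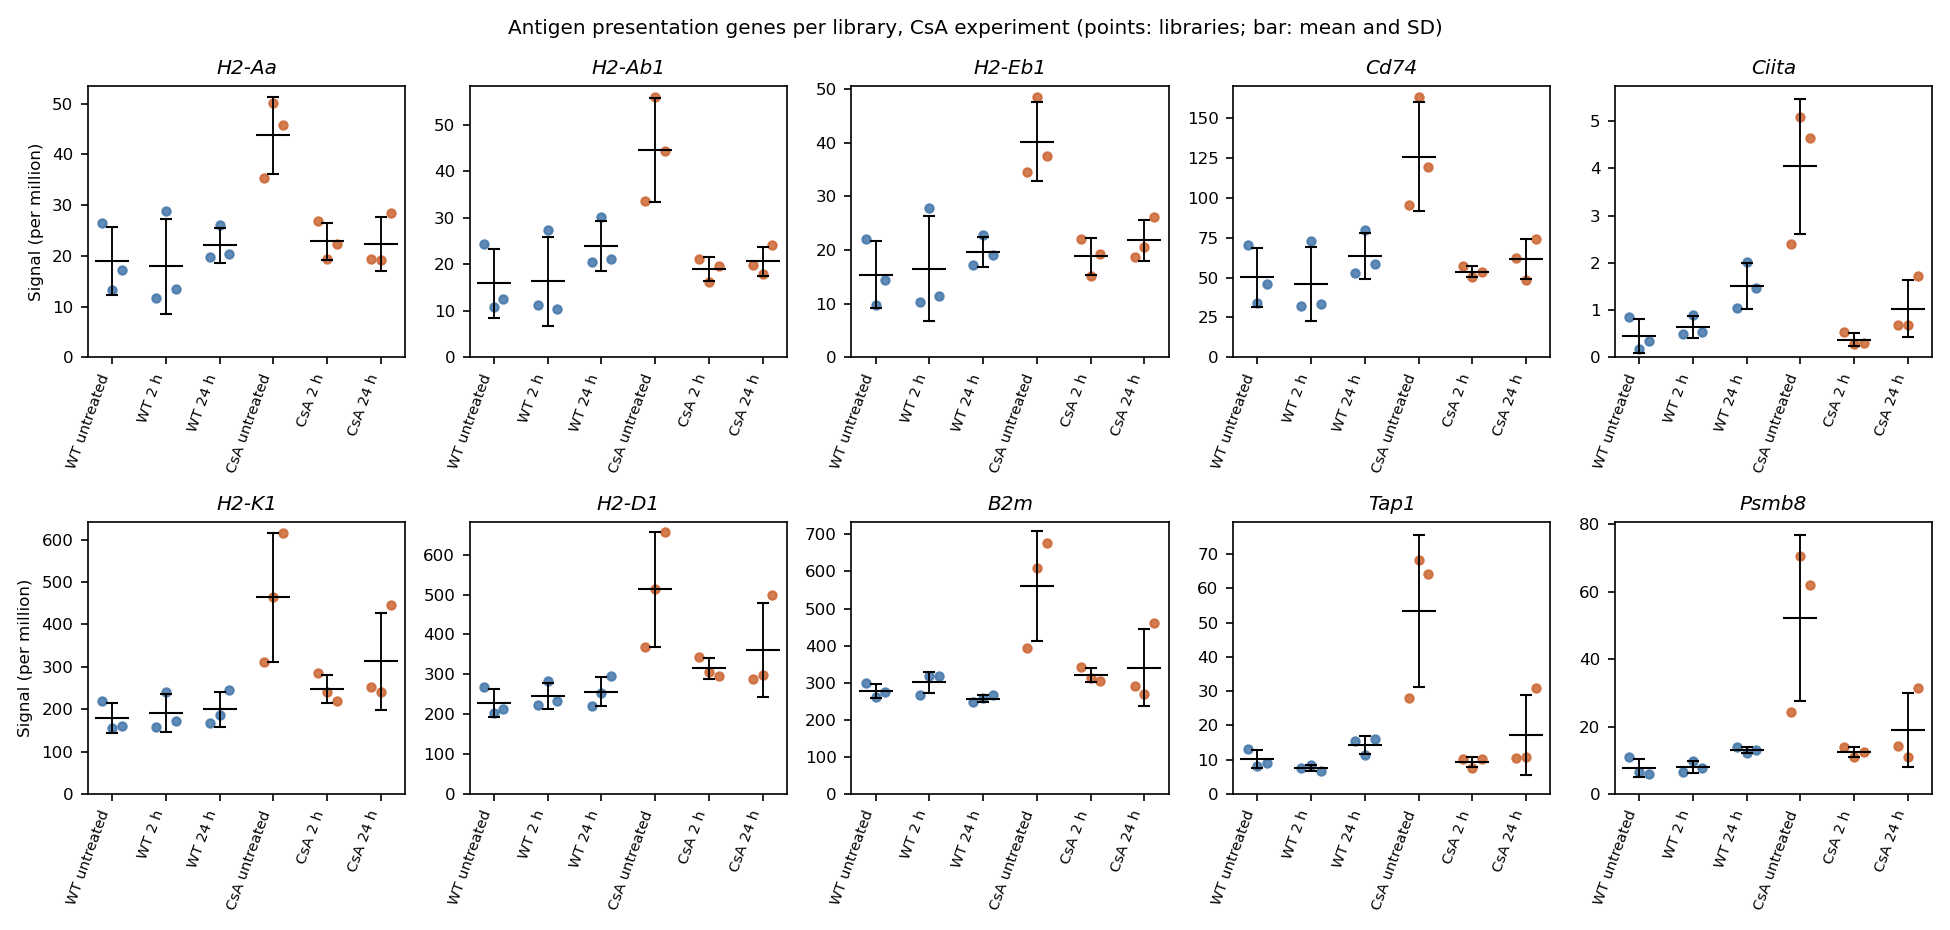
Signal of each of the 10 genes (linear axis from 0, reads plus 0.5 on a CPM scale) in the 18 libraries of the CsA experiment, 1 point per library, with bars for the mean and SD of each group, in WT and CsA untreated and after 2 and 24 h of Ang-II. The untreated CsA libraries have the highest mean of the 6 groups for all 10 genes, and CsA libraries after 2 h of Ang-II lie below them.

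The rest of the pathway was read from lists of related genes, which also hold some of the 10 genes themselves. The class I list includes H2-K1, H2-D1 and B2m, the peptide loading list Tap1 and the immunoproteasome list Psmb8. The class II list includes the class II chains among the 10 genes, so the counts of these lists partly repeat calls given above. Of 10 class I chains, 9 were higher in untreated CsA than in WT (median log2 difference 1.37), among them the non-classical H2-T23 at 1.85 ± 0.26 (SE, adjusted p = 0.000538) and H2-Q7 at 2.10 ± 0.39 (SE, adjusted p = 0.00193). All 5 genes of the immunoproteasome and its activator were higher (median 1.52). Psmb9 had signals of 6.09, 4.07 and 4.72 in WT and 12.3, 28.4 and 31.1 in CsA, and differed by 2.07 ± 0.36 (SE, adjusted p = 0.00153). Of the 3 constitutive proteasome subunits that these replace, only Psmb5 passed the test, at 0.27 ± 0.09 (SE, adjusted p = 0.0396). Of 8 peptide loading genes 5 were higher (Tap1, Tap2, Tapbp, Tapbpl and Erap1), with Tap2, the partner of Tap1, at 1.15 ± 0.22 (SE, adjusted p = 0.00241). Calr, Canx and Pdia3, general chaperones of the endoplasmic reticulum, did not pass. In the class II list 6 of 9 genes tested were higher, including H2-DMa, which exchanges the peptide on class II molecules, at 1.35 ± 0.29 (SE, adjusted p = 0.00385), and the lysosomal protease Ctss at 1.71 ± 0.29 (SE, adjusted p = 0.00128).

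Among 9 regulators of these promoters, 2 were higher and 2 lower in untreated CsA. Nlrc5, the class I coactivator, had signals of 5.03, 3.84 and 3.59 in WT and 19.4, 31.4 and 28.9 in CsA and differed by 2.52 ± 0.29 (SE, adjusted p = 0.000385). Ciita was the other. Rfx5, a subunit of the factor that binds the X box of both classes, had 23.7, 22.050 and 24.8 in WT against 16.7, 17.1 and 17.6 in CsA and was lower, with a log2 difference of -0.44 ± 0.10 (SE, adjusted p = 0.00534), and Nfya, a subunit of the Y box factor, differed by -0.42 ± 0.13 (SE, adjusted p = 0.0250). The other 5 regulators, Rfxank, Rfxap, Creb1, Nfyb and Nfyc, did not pass the test.

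In the interferon gamma pathway 4 of 8 genes were higher in untreated CsA and 2 lower. Irf1, a transcription factor that interferon gamma induces, had 23.5, 17.3 and 19.1 in WT and 37.2, 88.3 and 56.2 in CsA (log2 difference 1.50 ± 0.31 SE, adjusted p = 0.00333). The receptor chain Ifngr2 was lower, at -0.64 ± 0.09 (SE, adjusted p = 0.000732). All 16 genes of an interferon-inducible list were higher (median 2.30), with Igtp, a GTPase of cell-intrinsic defence, at 3.82 ± 0.56 (SE, adjusted p = 0.000674) and Irf7, a regulator of type I interferon genes, at 2.81 ± 0.39 (SE, adjusted p = 0.000545). Of 4 costimulation genes tested, Cd274, which encodes the inhibitory ligand PD-L1, differed by 2.67 ± 0.39 (SE, adjusted p = 0.000646) and Icosl by 0.69 ± 0.18 (SE, adjusted p = 0.0125).

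Markers of several cell types moved with the 10 genes in this comparison. Per the methods, perivascular tissue and adventitia had been removed with forceps, yet adipocyte and adventitial fibroblast markers were present in all libraries. All 11 macrophage markers were higher in untreated CsA (median log2 difference 1.32), with a summed signal of 121 to 174 in WT and 334 to 390.3 in CsA libraries. The 3 general leukocyte markers were higher as well (summed signal 14.03 to 24.8 against 35.7 to 51.2), as were all 6 endothelial markers (371 to 637 against 983 to 1149.7) and all 5 adipocyte markers (351 to 665 against 2330.3 to 4165). Of 6 smooth muscle markers 5 were lower (25023 to 34296 against 16006 to 18082). Adventitial fibroblast markers summed to 838 to 1468 in WT and 1293 to 1465 in CsA libraries, which overlapped. None of 3 dendritic cell markers tested (Itgax, Zbtb46 and Cd209a) passed the test (summed signal 19.3 to 25.3 against 22.003 to 25.9), nor did Cd79a of the B cell list (0.304 to 1.1626 against 0.289 to 0.428) or any of 3 T cell genes (1.40 to 2.86 against 1.75 to 3.20). The dendritic sum was mostly Zbtb46, at 13.2 to 24.2 over the CsA experiment. Itgax reached at most 1.78 there and Cd209a 2.36, so the sum says little of those genes. S100a8 and S100a9, 2 of 4 neutrophil markers, were higher. The part of these cell types in the result was not tested. Cd79b, Ms4a1, Pax5, Flt3, Xcr1, Clec9a, Ccr7, Cd3d, Cd3e and Cd3g were not among the genes listed in the CsA experiment and could not be tested there.

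In WT mice, Ang-II gave no detectable change of the 10 genes at 2 h. Limma called 0 of 10, with 21.4% of all genes called, and edgeR and DESeq2 on recovered reads also called 0 of 10. At an unadjusted p under 0.05 in limma it was 0 as well, beside 4473 of all 13738 genes. The log2 differences ran from -0.37 to 0.31 (median 0.05). H2-Eb1 had signals of 10.3, 27.9 and 11.5 after 2 h and Cd74 31.9, 72.6 and 33.6, so that replicate 2 stood above the other libraries of its group for class II genes. The macrophage markers in that library summed to 373, against 106 and 119 in the other 2, and their part in this difference was not tested.

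After 24 h of Ang-II in WT mice, 1 of the 10 genes passed, where 35% of all genes were called and 18.1% were called higher. Ciita had signals of 1.05, 2.02 and 1.48 (20, 59 and 41 reads) and was higher than in untreated WT by 1.11 ± 0.35 (SE, adjusted p = 0.0216). The call was lost, leaving 0 of 10, without WT untreated replicate 2 or 3 or without WT 24 h replicate 2, and 2 genes passed without WT untreated replicate 1. Psmb8 had 13.8, 12.2 and 12.9, a log2 difference of 0.76 ± 0.37 (SE, adjusted p = 0.130), and H2-Ab1 20.5, 30.1 and 21.1, at 0.64 ± 0.33 (SE, adjusted p = 0.144). Of the class I chains H2-K1 had 168, 186 and 245 (log2 difference 0.16 ± 0.26 SE, adjusted p = 0.683) and B2m 247, 258 and 265 (log2 difference -0.11 ± 0.19 SE, adjusted p = 0.682), which overlapped with untreated WT. In the same comparison all 11 macrophage markers were higher (median 1.61, summed signal 325 to 483), and 0 of 16 interferon-inducible genes passed (1 at an unadjusted p under 0.05, median 0.44). The part of macrophages in the values of the 10 genes was not tested. Over the 10 genes the log2 differences ran from -0.11 to 1.11.

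In CsA mice, all 10 genes were lower after 2 h of Ang-II than without it. The reference was the same untreated CsA libraries that stood above WT, so the fall is not independent of that difference. Limma called 10 of 10 lower, where 7.84% of all genes were called lower and 20.1% in either direction, and the groups did not overlap for any of them, against 16.9% of all genes lower in every 2 h library than in every untreated CsA library. The median log2 difference was -1.13, beside -0.02 over all genes. Tap1 had signals of 10.2, 7.68 and 10.3 after 2 h, a log2 difference of -2.35 ± 0.36 (SE, adjusted p = 0.000480). Psmb8 had 13.97, 10.9 and 12.4, at -1.90 ± 0.37 (SE, adjusted p = 0.00261), and Ciita 0.536, 0.290 and 0.301, with 10, 6 and 7 reads, at -2.33 ± 0.35 (SE, adjusted p = 0.000407). In untreated WT these genes had spanned 8.22 to 13.3 (Tap1), 5.82 to 10.9 (Psmb8) and 0.169 to 0.847 (Ciita). The 2 h libraries lay within that range for Ciita and within or just below it for Tap1. For Psmb8 they lay at its top or above it.

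The class II genes fell less steeply at 2 h. H2-Aa had 26.8, 19.5 and 22.3, H2-Ab1 21.1, 16.1 and 19.7 and H2-Eb1 22.1, 15.2 and 19.2, with log2 differences of -0.92 ± 0.29 (SE, adjusted p = 0.0364), -1.19 ± 0.33 (adjusted p = 0.0186) and -1.07 ± 0.32 (adjusted p = 0.0256). Cd74 had 57.4, 50.6 and 53.2 and differed by -1.18 ± 0.30 (SE, adjusted p = 0.0122). Of the class I chains, H2-K1 had 285, 239.7 and 221 (log2 difference -0.85 ± 0.26 SE, adjusted p = 0.0301), H2-D1 344, 305 and 295 (log2 difference -0.67 ± 0.21 SE, adjusted p = 0.0371) and B2m 341, 313 and 305 (log2 difference -0.77 ± 0.19 SE, adjusted p = 0.00964). For all 3 every 2 h library was below every untreated CsA library. The count depended on single libraries: 4 of 10 were called without CsA untreated replicate 2 or 3, and 5 without CsA 2 h replicate 2.

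The related lists fell with them at 2 h: 16 of 16 interferon-inducible genes (median -2.13), 9 of 10 class I chains, 5 of 5 immunoproteasome genes, 5 of 8 peptide loading genes and 7 of 9 class II genes were lower. The antigen presentation lists among these hold some of the genes already counted above. Nlrc5 had 10.6, 7.42 and 8.97 and differed by -1.49 ± 0.29 (SE, adjusted p = 0.00262) and Irf1 by -1.59 ± 0.31 (SE, adjusted p = 0.00227). Of 11 macrophage markers 6 were lower (median -0.82, summed signal 185 to 204), 0 of 6 endothelial (1 at an unadjusted p under 0.05) and 0 of 5 adipocyte markers (1) passed. Smooth muscle markers had a higher summed signal after 2 h, without overlap (16006 to 18082 untreated against 19668 to 25459.7), and 1 of 6, Cnn1, was called higher. The part of these cells in the result was not tested.

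After 24 h of Ang-II in CsA mice, 5 of the 10 genes were lower than in untreated CsA, where 3.77% of all genes were called lower and 8.98% in either direction. The median log2 difference was -0.98. Tap1 had signals of 10.5, 10.7 and 30.8 (log2 difference -1.68 ± 0.36 SE, adjusted p = 0.0110), Psmb8 14.3, 11.04 and 31.4 (log2 difference -1.45 ± 0.37 SE, adjusted p = 0.0257) and Ciita 0.691, 0.682 and 1.73 (log2 difference -1.58 ± 0.35 SE, adjusted p = 0.0125). Cd74 had 62.5, 48.7 and 73.9 (log2 difference -1.01 ± 0.30 SE, adjusted p = 0.0478) and B2m 291, 269.7 and 459.7 (log2 difference -0.72 ± 0.19 SE, adjusted p = 0.0272). Replicate 3 stood above the other 2 libraries for all of these, and for Tap1, Psmb8, B2m, H2-K1 and H2-D1 it overlapped with the untreated CsA libraries. The groups did not overlap for the other 5 genes, against 14% of all genes lower in every 24 h library.

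The other 5 genes did not pass at 24 h by limma. DESeq2 called 7 genes, the same 5 with H2-Aa and H2-Ab1, and edgeR 4, without Cd74. Fitting only the untreated and 24 h CsA libraries called 3, H2-Aa, H2-Ab1 and H2-Eb1, and none of the 5. H2-K1 had 253, 241 and 445, a log2 difference of -0.57 ± 0.26 (SE), and H2-D1 288, 297 and 498, at -0.52 ± 0.21. H2-Aa had 19.3, 19.2 and 28.5, at -0.96 ± 0.29 (adjusted p = 0.050025), and H2-Ab1 and H2-Eb1 differed by -1.07 ± 0.33 and -0.87 ± 0.32. CsA 24 h replicate 3 was also the deepest library, with 38.9 M reads, and had the highest sum of the group for interferon-inducible genes (511, against 197 and 166), macrophage markers (454, against 320.4 and 286) and neutrophil markers (78.4, against 5.77 and 26.6). The part of these in its values was not tested. Without it 9 of the 10 genes were called, and 0 were called without CsA untreated replicate 2 or without CsA 24 h replicate 1 or 2, and 2 without CsA untreated replicate 3. Limma called 0 of 11 macrophage markers between untreated and 24 h CsA libraries (2 at an unadjusted p under 0.05, median 0.03), while 14 of 16 interferon-inducible genes were lower. Smooth muscle markers summed to 18811 to 27247 after 24 h, above every untreated CsA library, and 2 of 6, Cnn1 and Tagln, were called higher. The part of these cells in the result was not tested.

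**Figure D2:**
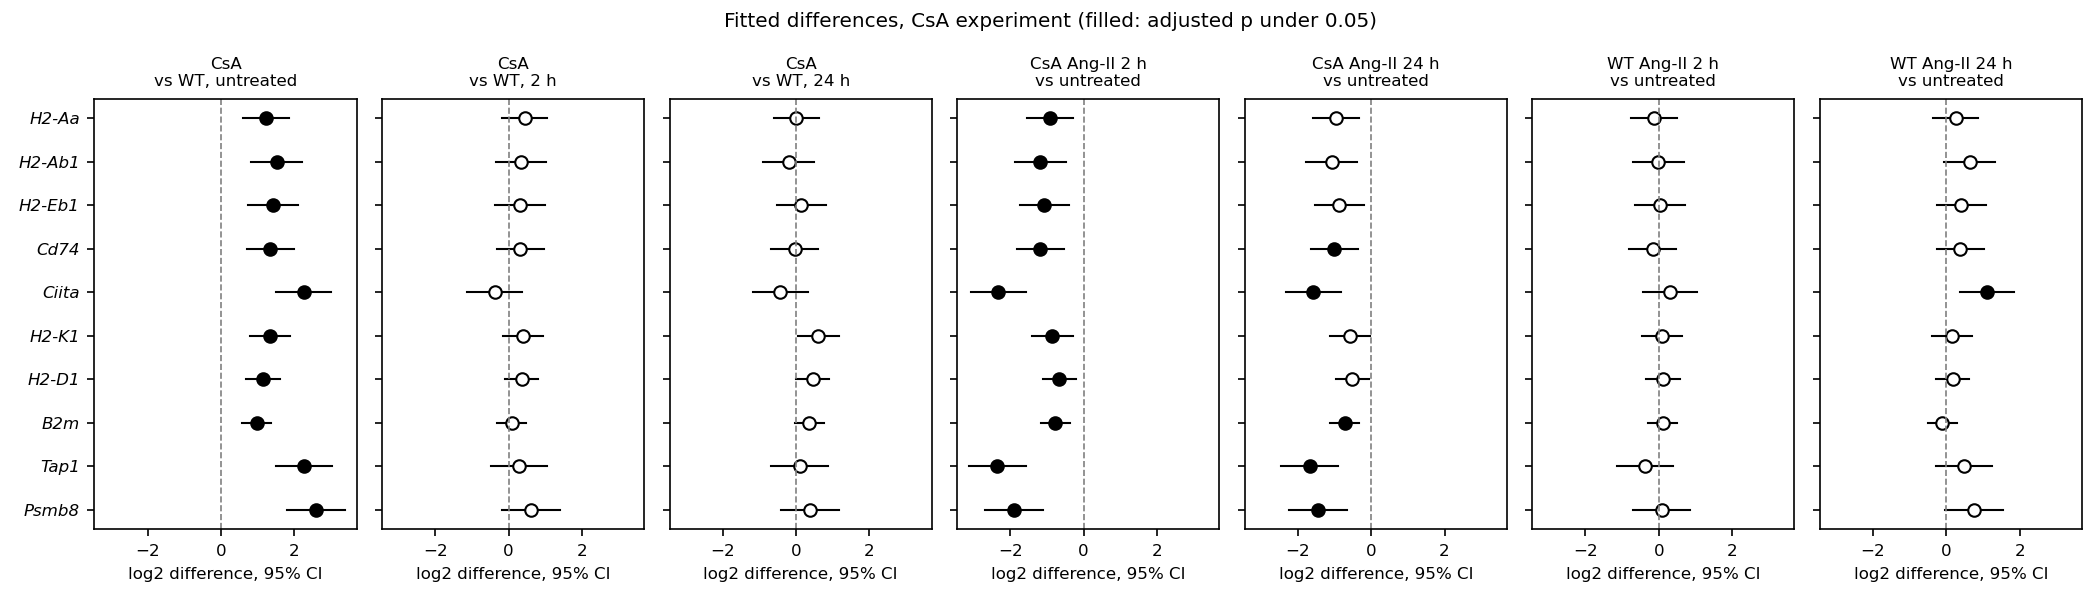
Log2 differences (x axis) of the 10 genes with 95% confidence intervals (limma) in the CsA experiment, 1 panel per comparison, with filled points for adjusted p under 0.05. All 10 points lie above 0 for CsA against WT before Ang-II and below 0 for CsA mice 2 h after Ang-II, and at 2 and 24 h no point for CsA against WT is filled.

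Between CsA and WT mice after the same hours of Ang-II, none of the 10 genes passed. At 2 h limma called 0 of 10 (1.33% of all genes called), as did edgeR and DESeq2, and the median log2 difference was 0.33. At an unadjusted p under 0.05 there were 0 of 10, beside 2546 of all 13738 genes. At 24 h limma called 0 of 10 (5.58% of all genes called), as did edgeR and DESeq2, with a median of 0.12. Here 2 of 10 had an unadjusted p under 0.05, beside 3263 of all 13738 genes, which is a similar share. Those 2 were H2-K1 at 0.61 ± 0.26 (SE, 95% interval 0.05 to 1.1601) and H2-D1 at 0.45 ± 0.21 (0.00 to 0.91). For Psmb8 the 95% interval of the log2 difference at 2 h was -0.18 to 1.40, which holds 0 and also differences as large as those of class I chains before Ang-II. Averaged over the 3 time points with equal weight, 9 of the 10 genes were higher in CsA (14.6% of all genes called higher, 29% in either direction), from 0.48 for B2m to 1.20 for Psmb8, and Ciita did not pass (log2 difference 0.48 ± 0.20 SE, adjusted p = 0.0860). This average holds the untreated difference as 1 of its 3 terms. H2-Ab1 was called in 12 of 26 alternatives (adjusted p up to 0.0822; edgeR called 8 genes, without it) and Cd74 in 18 of 26 (adjusted p up to 0.0643), while the other 7 genes were called in all 26. Leaving out any 1 library gave 7 to 10 genes.

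The responses to Ang-II themselves were compared by an interaction term, CsA minus WT. Each term equals the difference between CsA and WT after Ang-II minus that before it, and so contains the untreated difference described above. At 2 h, 1 of the 10 terms passed, and it was negative (0.124% of all genes called negative, 0.146% in either direction): Ciita at -2.64 ± 0.50 (SE, adjusted p = 0.0497). Of the 10 terms 9 had an unadjusted p under 0.05, beside 1898 of all 13738 genes, and the median was -1.06. Without any 1 library but CsA untreated replicate 1 the call of Ciita was lost and 0 of 10 passed, and without CsA untreated replicate 1 it was 3. At 24 h, 4 of the 10 passed, all negative (4.89% of all genes called negative, 9.42% in either direction): Ciita at -2.69 ± 0.50 (SE, adjusted p = 0.00678), Psmb8 at -2.20 ± 0.53 (SE, adjusted p = 0.0182), Tap1 at -2.16 ± 0.52 (SE, adjusted p = 0.0181) and H2-Ab1 at -1.71 ± 0.46 (SE, adjusted p = 0.0310). Of these, 1 was left without CsA 24 h replicate 1 or 2 and 2 without WT untreated replicate 2, while 7 passed without WT untreated replicate 1 and 9 without CsA 24 h replicate 3.

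**Figure D3:**
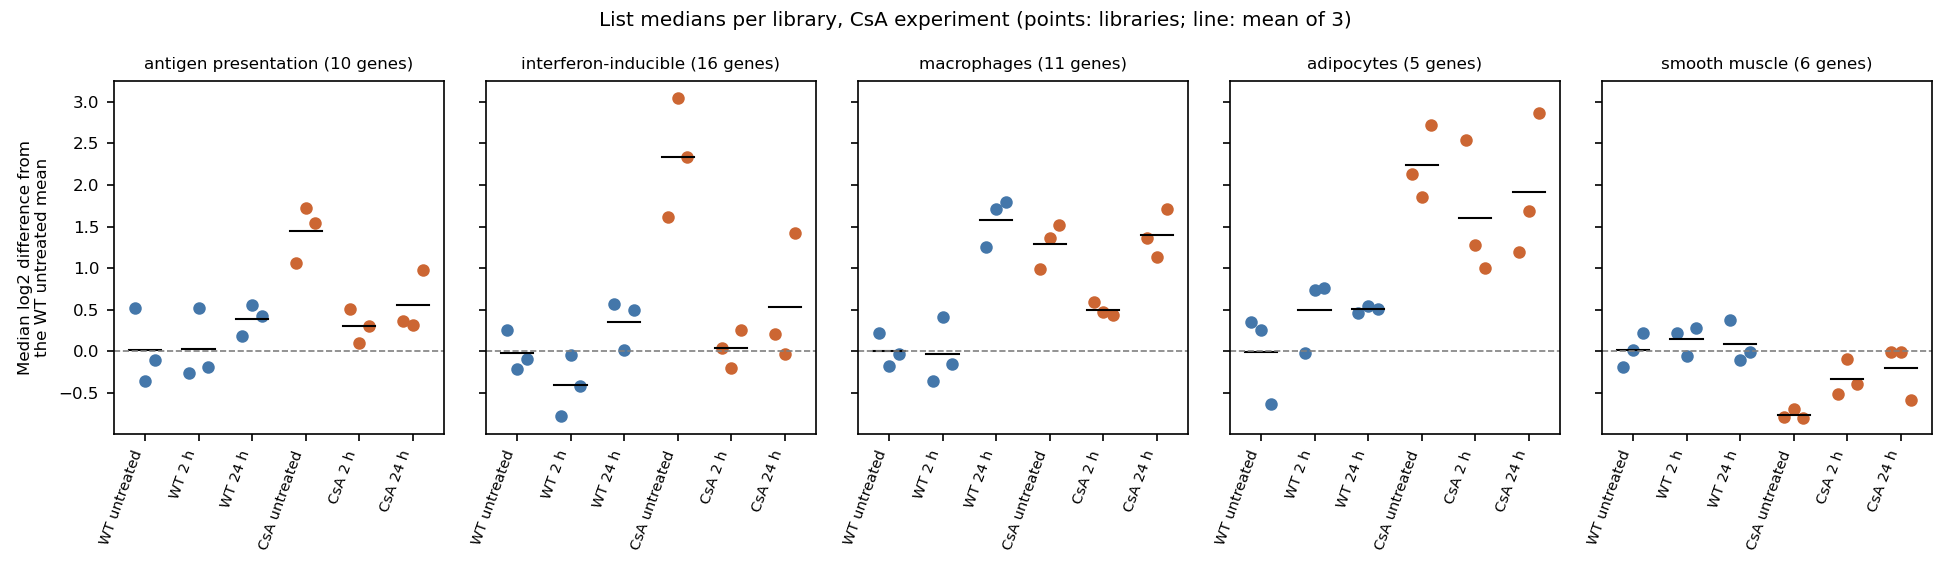
Median log2 difference from the untreated WT mean over the 10 antigen presentation genes, the 16 interferon-inducible genes and the markers of macrophages, adipocytes and smooth muscle, 1 panel per list, 1 point per library of the CsA experiment and a line at the mean of each group. The 10 genes stand at 1.06, 1.73 and 1.54 in untreated CsA libraries, where the macrophage markers stand at 0.99, 1.37 and 1.52. In WT libraries after 24 h of Ang-II the 10 genes stand between 0.18 and 0.56 and the macrophage markers between 1.25 and 1.80.

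Within the CsA experiment the 9 genes other than Ciita varied together from library to library. Over their 36 pairs, Pearson's r of log2 signal across 18 libraries ran from 0.71 for H2-Ab1 and B2m to 0.99 for H2-K1 and H2-D1 (median 0.86). Reads shared between H2-K1 and H2-D1 enter that last value, and the libraries include the group differences above. With group means removed, r ran from 0.43 for H2-Eb1 and B2m to 0.98 for H2-K1 and H2-D1. The genes outside the list closest to the mean of H2-Aa, H2-Ab1 and H2-Eb1 were Ly6e, an interferon-inducible surface protein (r = 0.937), Trim30a (0.927), the immunoproteasome subunit Psmb10 (0.922), Ifih1, a sensor of viral RNA (0.920), and Stxbp6 (0.918). Closest to the mean of H2-K1, H2-D1 and B2m were the class I genes H2-Q7 (0.957), H2-Q4 (0.953) and H2-T23 (0.942) and the proteasome activator subunits Psme2 (0.952) and Psme1 (0.938).

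In the genotype experiment the same genes differed less. Before Ang-II, the median log2 difference of the 9 genes other than Ciita between SM-Cn-/- and Cn-Ctl was 0.90, beside 0.00 over all genes, but limma called 0 of 10 (0.0139% of all genes called). At an unadjusted p under 0.05 there were 7 of 10, beside 757 of all 14424 genes. EdgeR called 0 of 10. DESeq2 called 2, H2-K1 and H2-D1, among 32 genes called of only 1281 to which it gave an adjusted p. In all, 7 of the 10 genes were higher in all 3 SM-Cn-/- than in both Cn-Ctl libraries, against 11.4% of all genes. Among the 7 is Ciita, where a SM-Cn-/- library and both Cn-Ctl libraries held 0 reads, so that this order came from the scaled library sizes.

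Cd74 was not among the genes that DESeq2 called, but DESeq2 gave an adjusted p to only 1281 genes here, so Cd74 may have had none. Cd74 had the smallest p of these differences in limma. Its signals were 35.2 and 31.3 in untreated Cn-Ctl and 108, 76.4 and 86.6 in untreated SM-Cn-/- libraries. Its log2 difference was 1.42 ± 0.34 (SE, limma adjusted p = 0.331). H2-Aa had 22.5 and 12.3 against 52.8, 24.1 and 46.6, at 1.20 ± 0.46 (adjusted p = 0.780). For both genes the groups were apart, and SM-Cn-/- replicate 2 was the lowest of its group. H2-Ab1 had 13.8 and 6.66 against 27.5, 20.8 and 27.5, at 1.34 ± 0.44 (adjusted p = 0.679). H2-Eb1 had 17.7 and 10.1 against 40.4, 26.4 and 28.9, at 1.20 ± 0.37 (adjusted p = 0.624).

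All log2 differences of the next 5 genes were smaller than that of Cd74. Of the class I chains before Ang-II, H2-K1 had 167 and 153 in Cn-Ctl and 286, 205 and 259 in SM-Cn-/- (log2 difference 0.63 ± 0.17 SE, adjusted p = 0.470). H2-D1 had 196 and 181 against 345, 238 and 261 (log2 difference 0.56 ± 0.19 SE, adjusted p = 0.695). B2m had 524 and 449 against 690.2, 516 and 629.6, and overlapped (log2 difference 0.32 ± 0.20 SE, adjusted p = 0.981). Tap1 had 11.3 and 10.9 against 15.3, 9.31 and 11.3 (log2 difference 0.08 ± 0.41 SE, adjusted p = 0.995) and Psmb8 11.1 and 7.03 against 25.6, 11.1 and 17.2 (log2 difference 0.90 ± 0.38 SE, adjusted p = 0.870). Both overlapped between the genotypes, and SM-Cn-/- replicate 1 was the highest library for all 5 genes.

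Ciita could not be compared in this experiment. It had 0 reads in 11 of 22 libraries, both untreated Cn-Ctl libraries among them, where 3 reads, the limit that a count of 0 allows, would be a signal of 0.276 to 1.04. The highest count was 10 reads, in Cn-Ctl 6 h replicate 1, and untreated SM-Cn-/- libraries held 7, 5 and 0 reads. In that Cn-Ctl library 4 B cell markers (Cd79a, Cd79b, Ms4a1 and Pax5) summed to 16.6, against 1.41 and 0.627 in the other libraries of its group, and Cd74 was at 111, against 51.1 and 45.0. The part of B cells in these values was not tested.

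Markers of several cell types also stood apart before Ang-II, without passing the test. The summed signal of macrophage markers was 101 to 136 in untreated Cn-Ctl and 191 to 328 in untreated SM-Cn-/- libraries, all 11 log2 differences were positive (median 1.03), and limma called 0 of 11 (8 at an unadjusted p under 0.05). All 16 interferon-inducible genes had positive differences too (median 0.77), with 0 called and 4 at an unadjusted p under 0.05. Leukocyte markers summed to 6.66 to 16.7 in Cn-Ctl and 19.5 to 29.5 in SM-Cn-/-, with 0 of 3 called and 0 at an unadjusted p under 0.05. Endothelial markers summed to 326 to 431 against 570.0 to 749 (0 of 6 called, 3 at an unadjusted p under 0.05) and smooth muscle markers to 27848 to 28363 against 20344 to 23766 (0 of 6 called, 0 at an unadjusted p under 0.05). These sums did not overlap between the genotypes. Those of adipocyte markers (245 to 374 against 271 to 1293) and adventitial fibroblast markers (795 to 1514 against 1080 to 1745) did. The part of any of them in the values of the 10 genes was not tested.

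**Figure D4:**
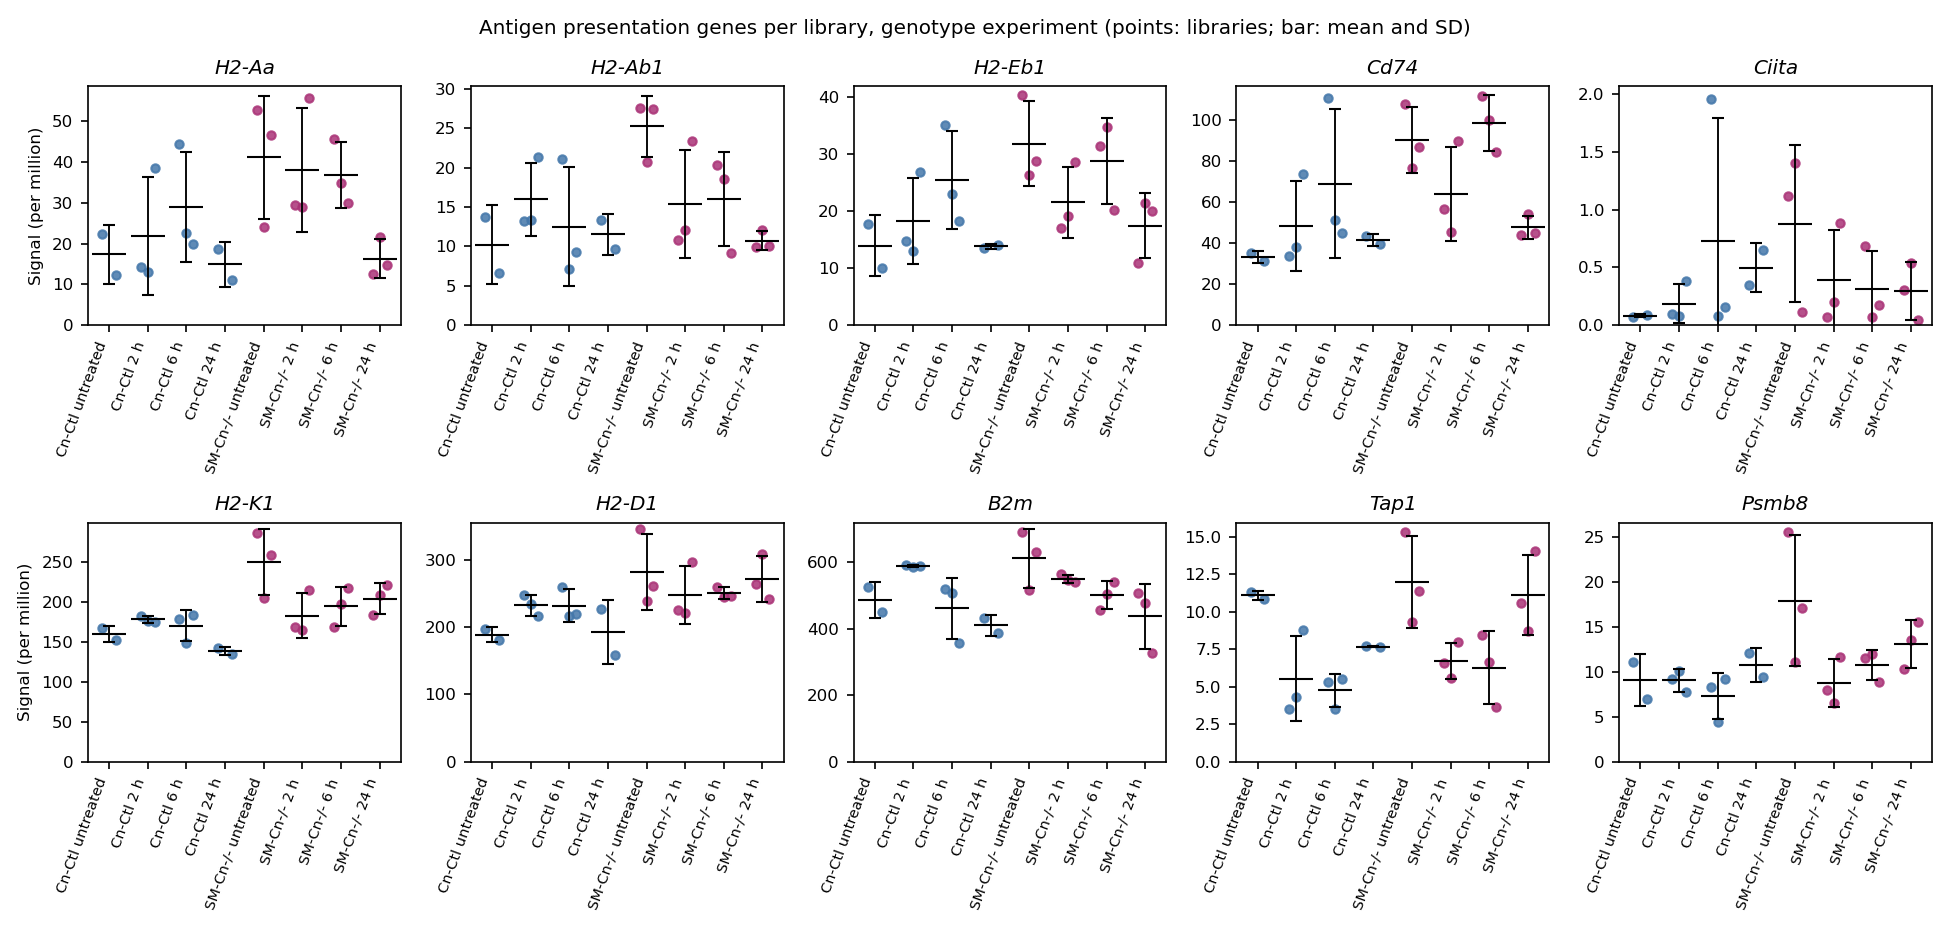
Signal of each of the 10 genes (linear axis from 0) in the 22 libraries of the genotype experiment, 1 point per library, with bars for the mean and SD of each group, in Cn-Ctl and SM-Cn-/- untreated and after 2, 6 and 24 h of Ang-II. The untreated SM-Cn-/- group has the highest of 8 group means for 9 of the 10 genes, with libraries that overlap the next group for all but H2-Ab1.

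By limma, Ang-II gave no called change of the 10 genes in either genotype, whereas DESeq2 called Cd74 in Cn-Ctl and H2-Aa and B2m in SM-Cn-/-. In Cn-Ctl, limma called 0 of 10 after 2 h (6.23% of all genes called), 6 h (3.97%) and 24 h (5.62%), and edgeR 0 at each time. At an unadjusted p under 0.05 there were 1, 3 and 0 of the 10, beside 2680, 2420 and 2890 of all 14424 genes. DESeq2 called 0, 1 (Cd74, higher after 6 h) and 0. Cd74 had 111, 51.1 and 45.0 after 6 h in Cn-Ctl, at 0.92 ± 0.34 (SE, adjusted p = 0.143). Tap1 lay lower after 2 h, with 3.49, 4.33 and 8.80 (log2 difference -1.04 ± 0.41 SE, adjusted p = 0.155), and after 6 h, with 5.31, 3.51 and 5.49 (log2 difference -1.158 ± 0.41 SE, adjusted p = 0.125).

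In SM-Cn-/- mice limma called 0 of 10 after 2 h (1.13% of all genes called), 6 h (2.34%) and 24 h (0.79%). At an unadjusted p under 0.05 there were 3, 2 and 5 of the 10, beside 1870, 2364 and 1660 of all 14424 genes. EdgeR called 0 at each time, and DESeq2 called 0, 0 and 2 (H2-Aa and B2m). All 9 genes other than Ciita had negative log2 differences after 2 h (median -0.54) and after 24 h (median -0.50). After 6 h they ran from -0.93 to 0.13 (median -0.28). Cd74 had 44.0, 54.3 and 44.8 after 24 h, at -0.91 ± 0.30 (SE, adjusted p = 0.190), and H2-Aa 12.5, 21.7 and 14.8, at -1.27 ± 0.41 (SE, adjusted p = 0.168). Every 24 h library of H2-Aa was below every untreated SM-Cn-/- library. Class I heavy chains moved less, with H2-K1 at 183, 208 and 221 after 24 h (log2 difference -0.28 ± 0.15 SE, adjusted p = 0.510).

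The genotypes were also compared at each hour of Ang-II. Limma called 0 of 10 genes at 2 h (3.7% of all genes called), 6 h (1.98%) and 24 h (4.94%), as did edgeR. At an unadjusted p under 0.05 there were 1, 0 and 2 of the 10, beside 2085, 2012 and 2560 of all 14424 genes. DESeq2 called 0, 0 and 1, the last H2-K1. H2-K1 had 142 and 134 in Cn-Ctl and 183, 208 and 221 in SM-Cn-/- after 24 h (log2 difference 0.56 ± 0.17 SE, adjusted p = 0.0654), with no overlap. H2-D1 had 226 and 159 against 263, 309 and 242 (log2 difference 0.51 ± 0.19 SE, adjusted p = 0.140), and was the 1 gene called without Cn-Ctl 24 h replicate 2. The interaction of genotype and Ang-II was called for 0 of 10 genes at 2 h (0.513% of all genes called), 6 h (0.0624%) and 24 h (0.513%). EdgeR and DESeq2 called 0 as well. At an unadjusted p under 0.05 there were 3, 0 and 2 of the 10, beside 1150, 873 and 1588 of all 14424 genes. For Cd74 the interaction at 24 h was -1.23 ± 0.48 (SE, 95% interval -2.22 to -0.23).

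Averaged over the 4 time points, 3 of the 10 genes were higher in SM-Cn-/- than in Cn-Ctl, where 4.46% of all genes were called higher and 11.1% in either direction. They were Cd74 at 0.67 ± 0.16 (SE, adjusted p = 0.00810), H2-K1 at 0.35 ± 0.08 (SE, adjusted p = 0.00626) and H2-D1 at 0.32 ± 0.09 (SE, adjusted p = 0.0236). H2-Aa had 0.66 ± 0.22 (SE, adjusted p = 0.0525), and the median of the 9 genes other than Ciita was 0.39. Without Cn-Ctl 2 h replicate 3 the count was 5. H2-D1 lost its call without Cn-Ctl untreated replicate 3 or Cn-Ctl 24 h replicate 3 (adjusted p up to 0.0883), which left 2, Cd74 and H2-K1. Among the related genes, H2-Q6 (log2 difference 0.75 ± 0.18 SE, adjusted p = 0.00742) and H2-Q4 (log2 difference 0.46 ± 0.14 SE, adjusted p = 0.0409) were higher as well, 7 of 16 interferon-inducible genes were higher (median 0.68), and 0 of 5 immunoproteasome genes (1 at an unadjusted p under 0.05) and 0 of 8 peptide loading genes (1) passed. In the same average, 4 of 6 endothelial markers were higher, 2 of 6 smooth muscle markers, Cnn1 and Acta2, were lower, and 0 of 11 macrophage markers passed (3 at an unadjusted p under 0.05, median 0.34). The part of these cells in the result was not tested.

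**Figure D5:**
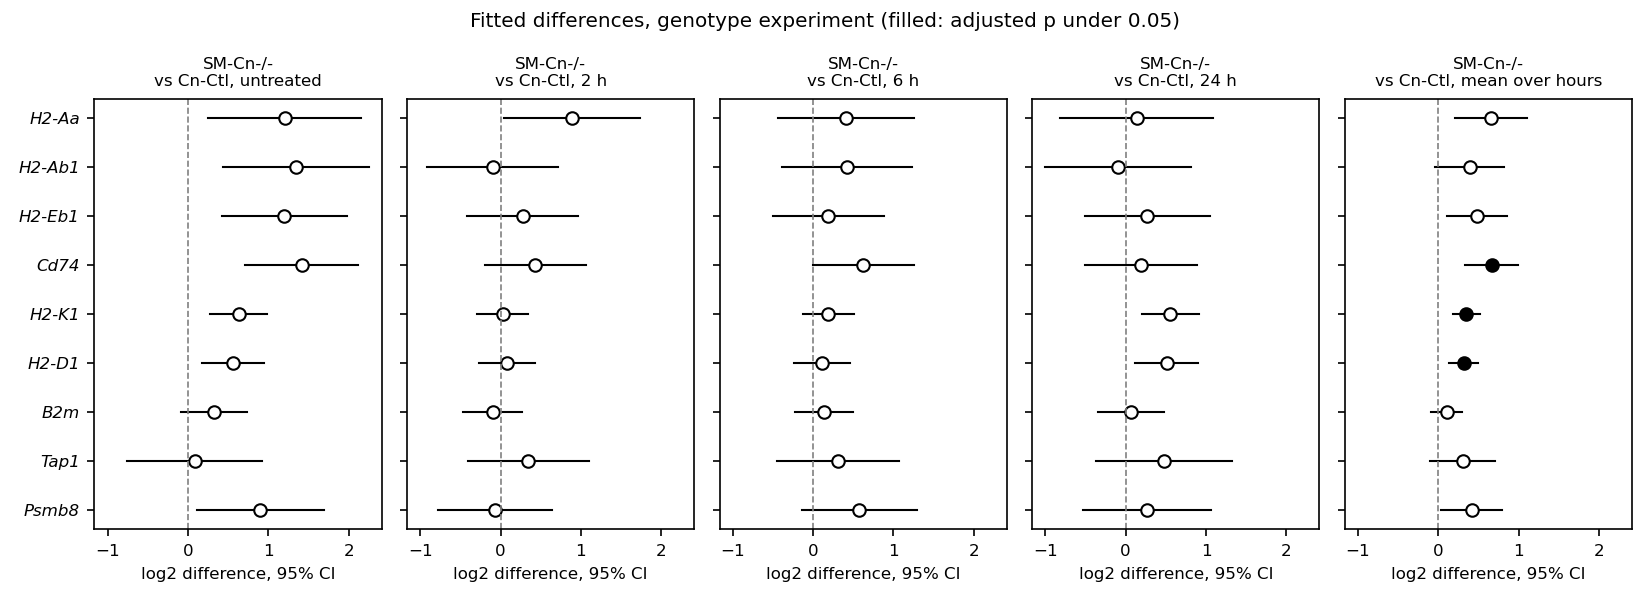
Log2 differences (x axis) of the 9 genes other than Ciita with 95% confidence intervals (limma) in the genotype experiment, 1 panel per comparison, with filled points for adjusted p under 0.05. Only the average over the time points has filled points, for Cd74, H2-K1 and H2-D1, while in the untreated panel 9 open points lie above 0.

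Across the 22 libraries of the genotype experiment the members were less alike than in the CsA experiment. Pearson's r over the same 36 pairs ran from -0.10 for B2m and Tap1 to 0.89 for H2-Eb1 and Cd74 (median 0.54). With group means removed, it ran from -0.25 for B2m and Tap1 to 0.88 for H2-Aa and Cd74. The genes closest to the class II chains were Gng2 (r = 0.718), Itih5 (0.712), Lgals3bp (0.693), Cd55 (0.688) and Pex11a (0.684), and those closest to the class I chains Ifi203 (0.757), H2-Q6 (0.754), Tmem45b (0.751), Npc2 (0.723) and Fuca1 (0.721).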

How the data were processed

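Aortas were freed of perivascular tissue and adventitia, 3 were pooled for each library, and RNA was reverse transcribed with oligo-dT primers. Per the submitters' processing notes, reads were handled with Bowtie 0.12.7 and RSEM 1.16 on GRCm38. The authors deposited a table of normalised values for each experiment, treated here as signal: every value equals the assigned reads plus 0.5, divided by a library size that they had scaled (a CPM scale). The scaling tool is not given in the sources used here. 1 untreated Cn-Ctl library was discarded by the authors.

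Reads were recovered from the steps between low values, and 100% of values came out whole within 0.01. Log2(signal + 0.5) was fitted with limma 3.58.1 (R 4.3.3; all libraries of an experiment, 1 mean per group, intensity trend, two-sided, Benjamini-Hochberg over all genes tested, threshold 0.05) for protein-coding genes with a signal of at least 1 in at least 2 libraries. A fold change on this scale understates that of low genes. Genes of other or no biotype were left out (2978 in the genotype and 1658 in the CsA table). EdgeR 4.0.16 and DESeq2 1.42.0 were run on the recovered reads as alternatives. Between CsA and WT before Ang-II, edgeR called 3463 genes, limma 3464 and DESeq2 4189. At 2 h of Ang-II edgeR called 162, limma 183 and DESeq2 801. The fits were tested on simulated data, and replicates differed by more than sampling noise in every pair (chi-square per gene 6.21 or above). Each table was tested on its own.

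The 10 genes, the gene lists and the tests were chosen with earlier results of these data known. All 10 genes were tested in every comparison. Where not all are named, the others are covered by the counts, medians and ranges given there. Of the lists, counts are given, and by name those past the threshold (at most 6 per list and comparison, by smallest p) plus Nlrc5, Irf1, Rfx5, Psmb9, Psmb10, Tap2, H2-DMa and Psmb5. 1 further gene of this rule and 1 cell type marker are not reported here, and the lists were counted without them. List members named as not passing were chosen after their values were seen. Genes most like the class I or class II chains are the 5 of mean signal at least 5 with the highest Pearson correlation in each experiment.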

Additional observations from a re-analysis of the deposited data

Results flagged for a closer look

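The response to Ang-II differed between CsA and WT mice for 4 of the 10 genes, by a test of the difference itself (limma, CsA minus WT, log2, n = 3 libraries in each of the 4 groups). At 24 h the difference of responses was -2.69 for Ciita, -2.20 for Psmb8, -2.16 for Tap1 and -1.71 for H2-Ab1, with adjusted p of 0.00678, 0.0182, 0.0181 and 0.031 in the fit across all genes. At 2 h it was -2.64 for Ciita alone (adjusted p = 0.0497). Every one of these terms contains the higher untreated level in CsA mice, since the untreated libraries serve as the reference of each response, and none of the 10 genes passed between CsA and WT after Ang-II. Of all genes 9.42% were called at 24 h (4.89% negative) and 0.146% at 2 h (0.124% negative). Only 1 gene, Ciita, was left at 24 h without CsA 24 h replicate 1 or 2. The 2 h call of Ciita was kept in 5 of 20 alternatives.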

How the results depend on the processing

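Among alternatives that kept every library, 198 of 214 counts of called genes stayed within 1.5 times, and the other 16 were these. DESeq2 called 1 gene after 6 h of Ang-II in Cn-Ctl, 2 after 24 h in SM-Cn-/-, 2 between the genotypes before Ang-II, 1 between them at 24 h and 4 for the CsA interaction at 2 h. Quantile normalization gave 1 between the genotypes at 24 h. With only the compared groups in the fit, 1 gene passed after 24 h in SM-Cn-/-, 2 after 24 h in WT, 3 after 24 h in CsA mice (H2-Aa, H2-Ab1 and H2-Eb1, with the calls of Cd74, Ciita, B2m, Tap1 and Psmb8 all lost) and 7 for the CsA interaction at 24 h. A mean signal of at least 5, which removes Ciita, left 0 after 24 h in WT. For the CsA interaction at 2 h, 0 genes passed with that filter, with quantile normalization, median-ratio scaling, edgeR or the replicate block.

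With the replicate block, 10 genes passed between CsA and WT before Ang-II, 9 in CsA mice after 2 h, 4 after 24 h, 8 for the mean of CsA against WT, 3 for the mean of SM-Cn-/- against Cn-Ctl, 4 for the CsA interaction at 24 h and 1 in WT after 24 h. The numbers were not taken to pair libraries: deviations of same-numbered libraries correlated at a median of 0.06 (genotype) and -0.03 (CsA), with 27 of 71 and 11 of 45 pairs above 0.1.

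Leaving out each library in turn gave 4 to 10 genes in CsA mice after 2 h, 0 to 9 after 24 h, 0 to 2 in WT after 24 h, 0 to 3 for the CsA interaction at 2 h and 1 to 9 at 24 h, 2 to 5 for the mean of SM-Cn-/- against Cn-Ctl, 7 to 10 for that of CsA against WT and 0 to 1 between the genotypes at 24 h. It gave 10 in every case between CsA and WT before Ang-II, and 0 for the other comparisons of the genotype experiment and for those of CsA with WT at 2 and 24 h and WT after 2 h.

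Of 4036 recomputed differences of single genes 100 changed sign, none of them called before or after. The genotype libraries are shallower, untreated Cn-Ctl has 2 of them, and Ciita could not be measured there. Fitting only the compared groups was not run for means over hours.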
